A study of Rattus norvegicus with 22 samples.

Results

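The aryl hydrocarbon receptor, its partner, its repressor and its best known target genes were examined in rat liver. Members were found by the gene name in the array files, ignoring case, among probes that are not controls. The names searched were Ahr, Arnt, Ahrr, Cyp1a1, Cyp1a2, Cyp1b1 and Tiparp. Of these 7 genes, 6 had a probe of that name, 1 probe each, among 30367 probes with 26276 gene names. Tiparp had none by name. One probe named only by an Ensembl transcript was described in the files as the TCDD-inducible poly(ADP-ribose) polymerase, which is Tiparp, and a second probe was described as the precursor of the rat aryl hydrocarbon receptor. These 2 probes are given beside the members, as Tiparp by description and Ahr by description.

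The animals were male Sprague-Dawley rats, 8 weeks old at the start, and 22 livers were measured. CD 3 (n = 5) and CD 14 (n = 6) received a semi-synthetic control diet for 3 or 14 months. BD 3 (n = 5) and BD 14 (n = 6) received the BASE-diet for the same times, in which 6% salmon fat replaced lard and 8% linden extract, 8% pumpkin puree and 1% probiotic bacteria were added together, so that the parts of the diet cannot be told apart. Each rat was hybridised in Cy5 on 1 two-colour Agilent array against a common Cy3 reference, made of liver RNA of healthy rats aged 10 weeks kept in the animals' room for 2 weeks.

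The aryl hydrocarbon receptor is a transcription factor that is activated by ligands, among them planar aromatic pollutants such as dioxin and some plant polyphenols. After binding a ligand it leaves a cytoplasmic complex with the chaperone Hsp90, pairs with Arnt in the nucleus and binds a short DNA motif, the xenobiotic response element, near genes of drug metabolism. The receptor repressor Ahrr and the polymerase Tiparp are themselves targets and dampen the response. In liver, Cyp1a2 is expressed constitutively by hepatocytes around the central vein, while Cyp1a1 and Cyp1b1 are known for low levels without a ligand.

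The core of the response element is GCGTG, and its longer form is TNGCGTG, which contains the core. Both strands were searched in RefSeq windows of the build GRCr8 that run from 250 bases before a gene's start to 50 after it. A window was found for 6 of the 7 members, all but Cyp1a1. The core stood in 29.7% of all 33469 windows and the longer form in 4.89%. Ahrr held 3 cores, 1 of them in the longer form, and 3.59% of all windows held 3 or more. Cyp1b1 held 2 cores, 1 of them in the longer form, Arnt and Tiparp 1 each, and Ahr and Cyp1a2 none. The 250 bases before the start are shown for the repressor with most cores, for Cyp1b1, and for Cyp1a2, the target with the largest differences of BD 14 below. Capitals mark the core or, on the opposite strand, CACGC.
Ahrr, chr1:30821969-30822218, plus strand: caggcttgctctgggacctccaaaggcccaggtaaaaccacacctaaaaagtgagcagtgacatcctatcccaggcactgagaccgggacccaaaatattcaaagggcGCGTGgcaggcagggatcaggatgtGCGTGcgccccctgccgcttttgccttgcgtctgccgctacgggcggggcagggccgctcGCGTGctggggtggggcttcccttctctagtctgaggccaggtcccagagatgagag
Cyp1b1, chr6:21094315-21094564, plus strand: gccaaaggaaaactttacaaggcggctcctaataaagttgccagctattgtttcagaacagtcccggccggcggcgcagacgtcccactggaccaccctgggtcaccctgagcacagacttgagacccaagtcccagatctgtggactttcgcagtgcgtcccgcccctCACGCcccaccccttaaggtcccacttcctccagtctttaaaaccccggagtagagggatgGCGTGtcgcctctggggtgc
Cyp1a2, chr8:66978150-66978399, minus strand: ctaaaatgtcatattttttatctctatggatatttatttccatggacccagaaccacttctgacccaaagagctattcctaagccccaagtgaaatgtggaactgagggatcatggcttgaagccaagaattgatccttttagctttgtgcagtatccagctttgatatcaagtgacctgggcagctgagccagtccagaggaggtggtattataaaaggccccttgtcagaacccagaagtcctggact
A match in these windows is a description of letters, and no binding was measured.

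The arrays were compared as they were scanned. Depending on the array, 52.4% to 93.6% of spots stood clear of the background in Cy5 by the software's criterion (well above background). CD 3 replicate 1 and CD 14 replicate 1 had 4.44% and 4.05% of non-uniform spots, against at most 0.063% on the other arrays, and CD 3 replicate 4 was the dimmest. The arrays lay on 5 slides, here A to E. All BD 14 arrays were on slide C with CD 14 replicates 4 and 5, CD 14 replicates 1 to 3 shared slide B with BD 3 replicates 3 to 5, BD 3 replicates 1 and 2 shared slide A with CD 3 replicate 1, CD 3 replicates 2 to 4 were alone on slide D, and CD 3 replicate 5 and CD 14 replicate 6 were on slide E. All 6 hepatocyte markers, Alb and Ttr among them, passed the filter described below on 22 arrays, and 0 of 4 pancreas markers passed it. No value of any member was saturated.

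Probes entered the test if, for 1 or more groups, each array of that group had 0.5 or more of the probe's spots well above background in Cy5. Of the 6 members, 3 passed (Ahr, Arnt and Cyp1a2) and 3 did not (Ahrr, Cyp1a1 and Cyp1b1), and both probes found by description passed. In all, 19434 probes were tested. Values are log2 ratios of the rat over the reference as the array labels give the dyes, while the methods name the dyes otherwise. No dyes were swapped, so a level below or above the reference cannot be told apart from a dye effect of the probe.

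**Figure D1:**
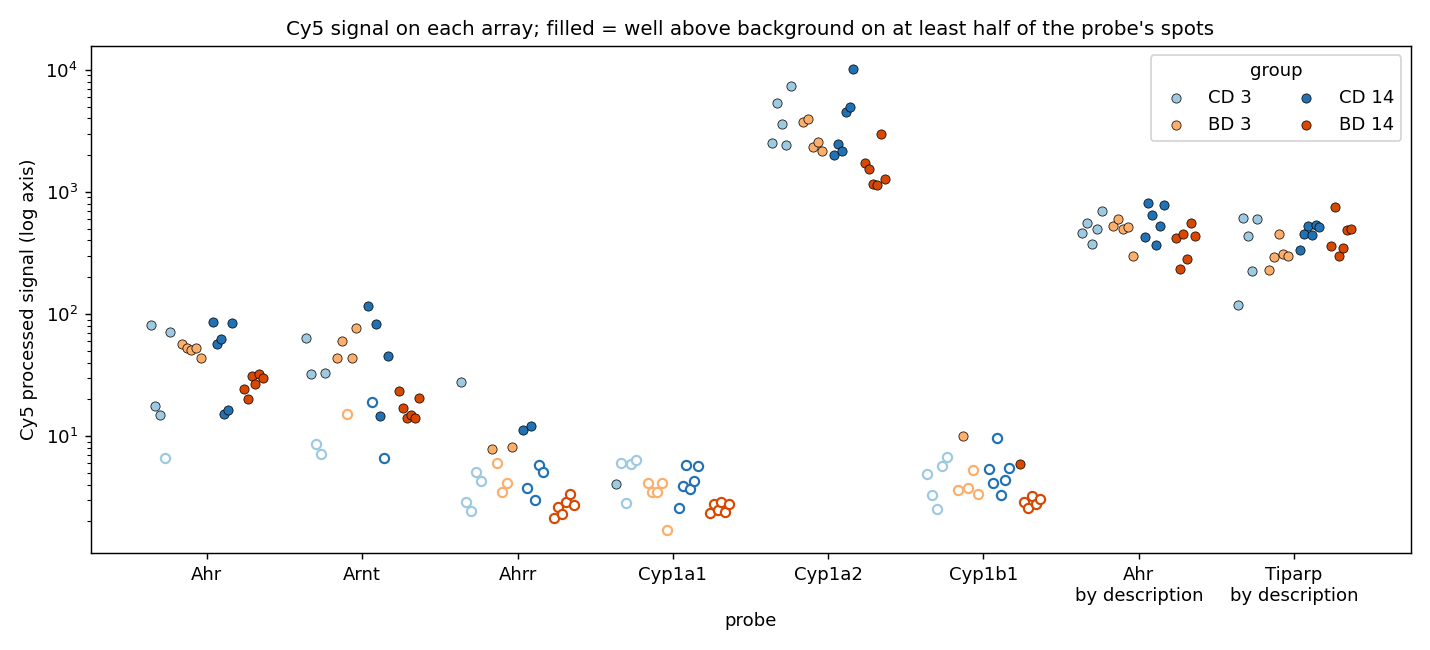
Cy5 processed signal (log axis) of each probe on each of the 22 arrays, coloured by group, with filled points where at least 0.5 of the probe's spots were well above background. Ahrr, Cyp1a1 and Cyp1b1 were well above background on 5, 1 and 2 arrays, Cyp1a2 on all 22, and signals of different probes are not comparable with each other.

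Ahr, the receptor itself, was well above background on 21 of 22 arrays with Cy5 signals of 6.65 to 85.5, and its levels did not separate by diet or time. Its log2 ratios in CD 3 were -0.34, -0.43, -1.46, -2.05 and 0.15, and in BD 3 they were -0.01, -0.68, -1.33, -0.32 and -0.25. All BD 3 values lay within the range of CD 3. In CD 14 the lowest, median and highest values were -1.67, -0.92 and 0.08, and in BD 14 they were -1.24, -0.11 and 0.72. These ranges overlapped as well. The highest value was that of BD 14 replicate 1, whose reference signal of 14.9 was the lowest of all arrays and not well above background, with an SD of 1.46 between its 2 spots. In Cy3 the probe passed on 19 of 22 arrays, and not on BD 14 replicates 1 and 2 and CD 14 replicate 4. The group means, from the lowest, were -0.86 ± 0.66 (SD, n = 6) in CD 14, -0.83 ± 0.90 (n = 5) in CD 3, -0.52 ± 0.51 (n = 5) in BD 3 and -0.25 ± 0.72 (n = 6) in BD 14, and no neighbours in this order differed beyond their SD.

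BD 14 was higher than CD 14 by 0.60 on the log2 scale (SE 0.39, limma adjusted p = 0.952), with a 95% interval from -0.21 to 1.41, and BD 3 was higher than CD 3 by 0.31 (SE 0.43, adjusted p = 0.924). With the slide as a block these differences were 1.13 and -0.36, with another background correction and dye normalization (normexp and loess) 0.12 and -0.0465, and with the Cy5 channel alone 0.11 and 0.70, none of them called. By time Ahr differed by -0.03 on control diet (SE 0.41, adjusted p = 0.991) and by 0.26 on BASE-diet (SE 0.41, adjusted p = 0.897), and with the block by -0.43 (SE 0.65) and 1.06 (SE 0.71). On slide C the CD 14 values were -1.09 and -1.67, and 1 of the 6 BD 14 values lay between them. The signal of the reference, the same RNA on each array, ran from 14.9 to 147.

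A second probe was described as the receptor. It lies on the same strand of the same chromosome of rn4, the build of the files. Both are shown because their differences at 14 months had opposite signs, though neither was called and no test compared them, and the longest run of letters that any other probe of the array shared with either was 17 of 60 for the first and 13 for the second.
Ahr, chr6:54205172-54205231, minus strand: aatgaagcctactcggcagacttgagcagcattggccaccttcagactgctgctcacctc
Ahr by description, chr6:54203947-54204006, minus strand: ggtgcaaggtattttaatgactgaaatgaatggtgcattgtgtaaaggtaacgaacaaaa
No gene annotation of rn4 was used here, so exon or UTR is not given for any probe. The second probe was well above background on all 22 arrays in both channels, with Cy5 signals of 233 to 807. Over the 22 arrays, its log2 ratios correlated with those of the first with Pearson's r = 0.33.

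In BD 14 the second probe had a lowest value of -1.56, a median of -0.63 and a highest of 0.25, and in CD 14 these were -0.87, -0.09 and 0.93. The ranges overlapped, and BD 14 differed from CD 14 by -0.54 on the log2 scale (SE 0.35, limma adjusted p = 0.952), where the first probe was higher. On slide C the difference was 0.14, where CD 14 replicates 4 and 5 stood at -0.83 and -0.87. In CD 3 its values were -0.46, -0.82, -1.14, 0.16 and 0.41, and in BD 3 they were -0.05, 0.04, -0.61, 0.26 and 0.63. The 3-month groups overlapped too (difference 0.42, SE 0.39, adjusted p = 0.879), and their difference was 0.07 (SE 0.58) with the slide as a block and 0.000524 with Cy5 alone. At 14 months Cy5 alone gave -0.28. By time it differed by 0.20 on control diet (SE 0.37, adjusted p = 0.911) and by -0.76 on BASE-diet (SE 0.37, adjusted p = 0.679). With the slide as a block these were 0.05 and 0.13.

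Arnt, the partner that the receptor needs to bind DNA, was dim and varied as widely within groups as between them. It has 1 spot per array, which was well above background on 17 arrays in Cy5 and on 8 of 22 in Cy3, so most of the ratios below, and the differences made from them, have a reference that was not well above background. In Cy5 these were 3 of 5 CD 3, 4 of 5 BD 3, 4 of 6 CD 14 and 6 of 6 BD 14 arrays. Arnt thus passed the filter only through BD 14, which lay wholly on slide C. The values were 0.75, 2.66, -0.0031, -0.88 and 0.22 in CD 3, with a single high array, and 1.23, -0.17, 1.01, 0.68 and 0.96 in BD 3. CD 14 ranged from -0.81 over a median of 0.52 to 1.18, and BD 14 from -1.84 over a median of 0.69 to 1.38. All groups overlapped. The lowest BD 14 value was that of replicate 1, whose Cy5 signal of 23.6 was the highest of its group and whose reference signal was 84.4, against 5.75 to 16.7 on the other BD 14 arrays.

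The means of Arnt were 0.37 ± 1.15 (SD, n = 6) in BD 14, 0.39 ± 0.68 (n = 6) in CD 14, 0.55 ± 1.32 (n = 5) in CD 3 and 0.74 ± 0.55 (n = 5) in BD 3, and no neighbours differed beyond their SD. The difference by diet was 0.19 at 3 months (SE 0.58, limma adjusted p = 0.970) and -0.02 at 14 months (SE 0.53, adjusted p = 0.998). At 14 months it was 0.38 on slide C alone and with the slide as a block, which are the same comparison. The interval at 14 months ran from -1.12 to 1.07. By time the differences were -0.16 on control diet (SE 0.55, adjusted p = 0.958) and -0.37 on BASE-diet (SE 0.55, adjusted p = 0.894). With Cy5 alone, without the dim reference, Arnt differed by diet by 0.80 and -0.15 and by time by 0.0865 and -0.86, none of them called. The SD of the reference signal of Arnt over the 22 arrays, 1.32 on the log2 scale, exceeded that of 96.3% of the probes tested.

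Ahrr, the repressor that competes with the receptor for Arnt, was well above background on few arrays. At least 0.5 of its 2 spots passed on 1 of 5 CD 3 arrays, 2 of 5 BD 3 arrays, 2 of 6 CD 14 arrays and 0 of 6 BD 14 arrays. These were CD 3 replicate 1, BD 3 replicates 1 and 5 and CD 14 replicates 1 and 3, with Cy5 signals of 27.6, 7.77, 8.20, 11.1 and 12.2. In the reference channel the probe passed on no array. On every BD 14 array the software set the log ratio to 0, since neither channel was above background, so those zeros are not levels. CD 3 replicate 1 and CD 14 replicate 1 are the arrays with most non-uniform spots, and the 5 arrays include the 4 with the largest shares of spots well above background. The part of array brightness in these detections was not tested, and no fold is given. For BD 14, where no array passed, the bounds against CD 14 and BD 3 were under 1, and for the other pairs no bound was computed.

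Cyp1a1, the enzyme most strongly induced by receptor ligands, stood at the detection limit in every group. Its probe is printed 10 times on each array, the most spots of any member, and its sequence is shown for that reason.
Cyp1a1, chr8:61468133-61468192, plus strand: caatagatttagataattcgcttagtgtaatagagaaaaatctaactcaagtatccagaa
Of 220 Cy5 spots, 8 were well above background. They were 5 of 10 on CD 3 replicate 1, 1 each on CD 3 replicates 2 and 5 and BD 3 replicate 1, and none on the 6 CD 14 and 6 BD 14 arrays. The mean Cy5 signal over spots ran from 2.82 to 6.40 in CD 3, from 1.69 to 4.10 in BD 3, from 2.56 to 5.77 in CD 14 and from 2.34 to 2.90 in BD 14. CD 3 replicate 1, the only array that passed with at least 0.5 of its spots, had a Cy5 signal of 4.02, within the range of BD 3, so no fold is given. The bounds over all 5 CD 3 arrays were 1.29 against BD 3 and 1.17 against CD 14, but only this array of CD 3 had a measured level. Not well above background means that a level under this limit was not measured, and not that the gene was silent.

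Cyp1b1, a cytochrome P450 expressed mostly outside hepatocytes, was also at the limit. In Cy5, 2 of 44 spots passed that limit, 1 on BD 3 replicate 2 with a mean signal of 9.92 and 1 on BD 14 replicate 1 with 5.87. The other 20 arrays had signals from 2.55 to 9.68, with none of their spots above background. The bounds for BD 3 over CD 3 and for BD 14 over CD 14 were under 1, so no fold is given.

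Cyp1a2, the constitutive liver enzyme that oxidises caffeine and aromatic amines, was the only member measured on every array and had the largest differences in the comparisons that involve BD 14, but the smallest of the members tested by diet at 3 months. Both of its spots stood well above background on all 22 arrays, in either channel, and the median SD between its spots within an array was 0.018 on the log2 scale. Its probe shared at most 6 letters in a row with those of Cyp1a1 and Cyp1b1.
Cyp1a2, chr8:61439236-61439295, minus strand: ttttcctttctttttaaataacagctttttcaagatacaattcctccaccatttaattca
Its log2 ratio was below 0 on every array. In CD 3 the values were -0.39, -0.70, -1.53, -1.83 and -0.43, and in BD 3 they were -0.50, -0.76, -1.18, -1.22 and -1.32. The 5 BD 3 values lay within the range of CD 3. The lowest, median and highest values were -1.96, -0.99 and -0.36 in CD 14 and -3.13, -2.02 and -1.05 in BD 14. BD 14 was thus the lowest group, with 3 of its 6 arrays below all arrays of the other groups, but its range overlapped with theirs.

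**Figure D2:**
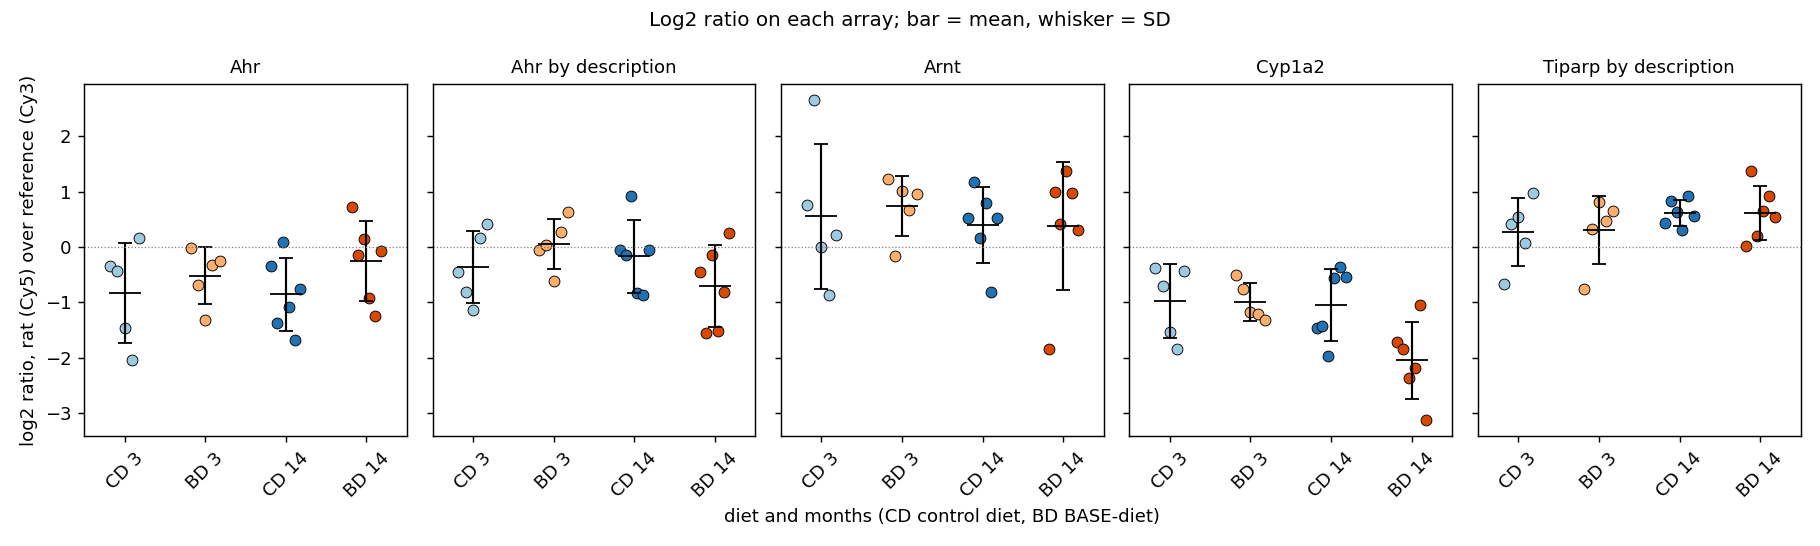
Log2 ratio of the rat (Cy5) over the common reference (Cy3) on each array for the 5 probes tested, by group, with the mean as a bar and the SD as a whisker. The BD 14 values of Cyp1a2 reach from -3.13 to -1.05, the lowest of its groups, and all groups overlap for every probe.

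In order, the means of Cyp1a2 were -2.05 ± 0.70 (SD, n = 6) in BD 14, -1.05 ± 0.65 (n = 6) in CD 14, -0.996 ± 0.35 (n = 5) in BD 3 and -0.98 ± 0.66 (n = 5) in CD 3. Only the step from BD 14 to CD 14 was larger than the SD of both groups. The difference of BD 14 from CD 14 was -0.996 (SE 0.34), a level 1.99-fold lower, with a 95% interval from -1.71 to -0.29. Its unadjusted p was 0.00819 and its limma adjusted p was 0.931. BD 14 differed from BD 3 by -1.05 (SE 0.36, limma unadjusted p = 0.00779, adjusted p = 0.483). Neither passed the threshold of 0.05.

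At 3 months the difference by diet was -0.02 (SE 0.37, limma adjusted p = 0.994), with an interval from -0.80 to 0.76 (-0.34 with Cy5 alone), and on control diet the difference by time was -0.08 (SE 0.36, adjusted p = 0.973). The test of whether the difference by diet was unlike at 14 and at 3 months gave -0.98 (SE 0.51, unadjusted p = 0.0675, adjusted p = 0.999), so the difference at 14 months is not shown to differ from that at 3 months. Averaged over both times, BASE-diet differed from control diet by -0.51 (SE 0.25, adjusted p = 0.690), and averaged over both diets 14 months differed from 3 months by -0.56 (SE 0.25, adjusted p = 0.336). With the slide as a block these 3 values were larger in size and not called either, at -1.53 (SE 0.61, limma adjusted p = 0.378), -0.82 (SE 0.31, adjusted p = 0.507) and -1.12 (SE 0.41, adjusted p = 1.000), and the difference by time on control diet was -0.36 (SE 0.49). Bulk liver RNA does not tell fewer cells of a type from less RNA per cell.

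The values are given by slide, since groups and slides were not balanced. On slide C, CD 14 replicates 4 and 5 stood at -0.55 and -0.36, above all 6 BD 14 arrays on the same slide, and the difference within that slide was -1.59 (SE 0.46, limma adjusted p = 0.308). CD 14 replicates 1 to 3, on slide B, stood at -1.47, -1.43 and -1.96, below the BD 3 arrays on slide B at -1.18 to -1.32. CD 14 replicate 6 on slide E stood at -0.54 and the CD 3 array on that slide at -0.43, and on slide A the CD 3 array stood at -0.39 and the BD 3 arrays at -0.50 and -0.76. On slide D, which held CD 3 arrays only, the 3 values spread from -1.83 to -0.70. With the slide as a block the 14-month difference was -1.59 too (SE 0.39, limma adjusted p = 0.234). As all BD 14 arrays are on slide C, this is the same comparison with CD 14 replicates 4 and 5, not a second check. The difference of BD 14 from BD 3, which share no slide, was -1.89 with the block (adjusted p = 0.991).

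**Figure D3:**
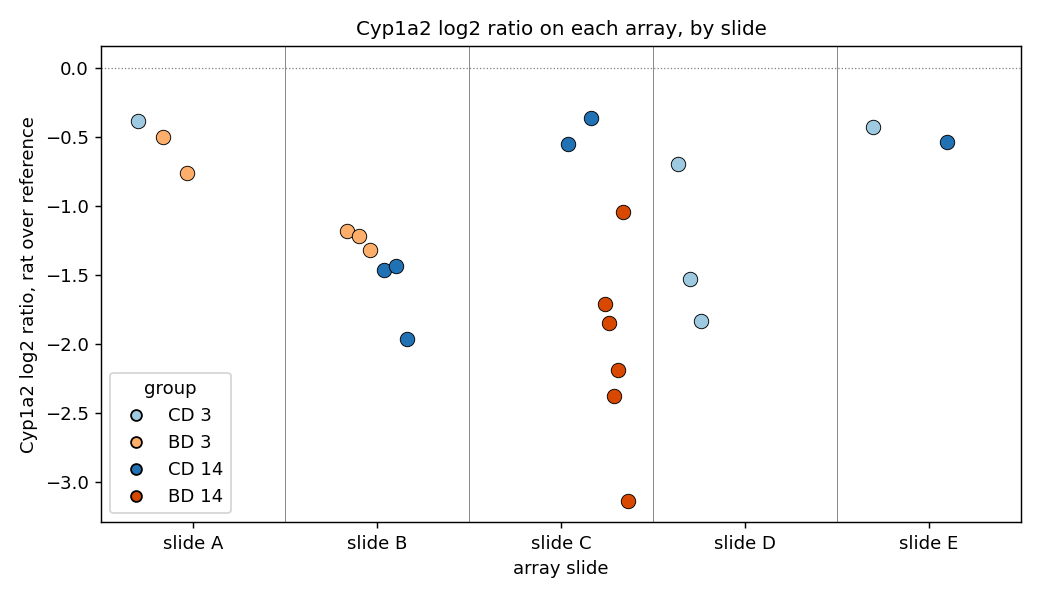
Cyp1a2 log2 ratio on each array, arranged by the slide the array was on and coloured by group. On slide C both CD 14 arrays (-0.55 and -0.36) lie above the 6 BD 14 arrays, while the 3 CD 14 arrays of slide B lie at -1.96 to -1.43.

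The Cy5 channel of Cyp1a2, without the reference, also placed BD 14 lowest. Its signal ran from 1142 to 2975 in BD 14 with a median of 1401, and from 2010 to 10150 in CD 14 with a median of 3325. In CD 3 the median was 3630 and in BD 3 it was 2573. Only BD 14 replicate 5 exceeded the lowest CD 14 array. After quantile normalization of Cy5 alone, BD 14 differed from CD 14 by -1.09 (SE 0.34, limma adjusted p = 0.786). The reference signal, of the same RNA on each array, ran from 3259 to 14757, and its SD of 0.48 on the log2 scale compares with 0.83 for Cy5. On BD 14 replicate 6, the array with the log2 ratio of -3.13, the reference signal was 11137. The other BD 14 arrays had 5200 to 6149. Its Cy5 signal of 1271 lay within the range of its group.

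Cyp1a2 is a gene of hepatocytes around the central vein, so other markers of these cells were counted. Of 7 pericentral markers listed, 6 were tested. From CD 14 to BD 14, 5 of the 6 were lower and 1 higher, with a median difference of -0.17 against 0.05 over all probes tested, and from BD 3 to BD 14 all 6 were lower, with a median of -0.62 against 0.07. None passed the limma threshold in either comparison, and the lowest adjusted p were 0.767 and 0.241, both of Slc1a2, the only gene of the list with an unadjusted p under 0.05 (0.00286 and 0.000451). Of all probes tested, 4.6% and 7.44% had an unadjusted p under 0.05 in these comparisons. From BD 3 to BD 14 periportal markers were mostly lower too, 5 of 6, with a median of -0.38, and whether the 2 lists differ was not tested. The mean log2 ratio of the list ran from -1.33 to -0.48 in CD 14 and from -2.08 to -0.46 in BD 14. Glul and Cyp2e1 were well above background on all 22 arrays. Between BD 14 and CD 14, Glul differed by -0.14 (SE 0.46) and Cyp2e1 by 0.48 (SE 0.41). Oat differed by -0.67 (SE 0.37), Axin2 by -0.06 (SE 0.37) and Rhbg by -0.21 (SE 0.48). Slc1a2, a glutamate transporter on this list, differed by -0.98 (SE 0.29, limma adjusted p = 0.767). From BD 3 to BD 14 these 6 genes, in the same order, differed by -0.30, -0.37, -0.67, -0.56, -0.97 and -1.26. The part of pericentral cells in the Cyp1a2 values was not tested. Between BD 14 and CD 14 the median differences of the other marker lists were -0.05 for hepatocytes (6 tested), -0.01 for periportal hepatocytes (6), 0.08 for stellate cells and fibroblasts (8), -0.29 for endothelial cells (5), -0.22 for macrophages (6), -0.39 for lymphocytes (1), -0.38 for red cells (2) and 0.29 for bile duct (3). None of these genes had an unadjusted p under 0.05, against 4.6% of all probes tested.

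Tiparp could be followed only by the described probe, with 1 spot per array, above the limit in both channels on all 22 arrays. It is shown because the files give it no gene name.
Tiparp by description, chr2:155338483-155338542, plus strand: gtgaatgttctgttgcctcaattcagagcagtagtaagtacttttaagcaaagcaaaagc
Its values were -0.67, 0.41, 0.54, 0.07 and 0.98 in CD 3 and -0.75, 0.33, 0.81, 0.47 and 0.65 in BD 3. The lowest value of each group was the array of replicate 1 on slide A, and both groups covered nearly the same range. The lowest, median and highest values were 0.31, 0.60 and 0.93 in CD 14 and 0.03, 0.59 and 1.36 in BD 14. The difference by diet was 0.03 at 3 months (SE 0.31, limma adjusted p = 0.991), with an interval from -0.61 to 0.68, and 0.00 at 14 months (SE 0.28, adjusted p = 1.000), with an interval from -0.59 to 0.59. By time it was 0.35 on control diet (SE 0.30, adjusted p = 0.744) and 0.32 on BASE-diet (SE 0.30, adjusted p = 0.817). With the slide as a block the 2 differences by time were 0.00 and -0.15.

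**Figure D4:**
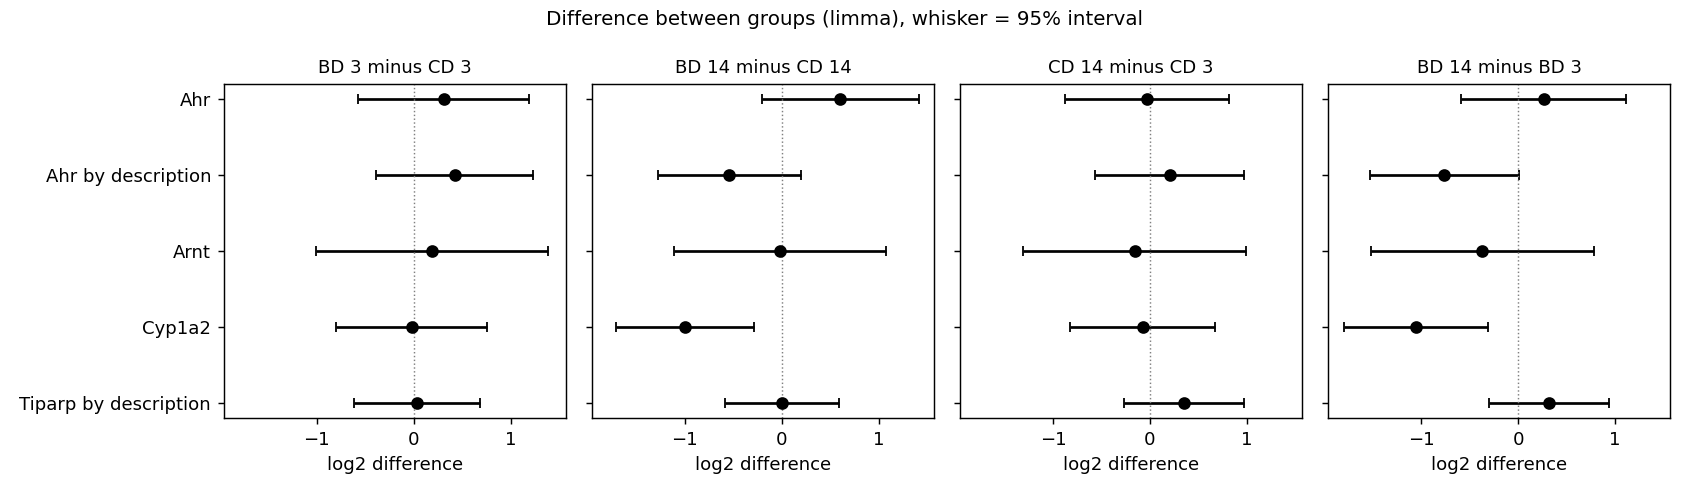
Difference in log2 ratio between groups, by diet at each time and by time on each diet, for the 5 probes tested, with 95% intervals from limma, not adjusted for the number of probes. The interval of Cyp1a2 lies below 0 for BD 14 against CD 14 (-1.71 to -0.29) and against BD 3 (-1.80 to -0.31), and every other interval plotted spans 0.

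No member passed the limma threshold, an adjusted p under 0.05, in any comparison. In the F test of differences among the 4 groups 0 of the 3 members tested were called, against 0.0257% of all probes tested, and the lowest unadjusted p was 0.0137, of Cyp1a2 (adjusted p = 0.345). For diet at 3 months and at 14 months, 0 of 3 members were called against 0% of all probes. At an unadjusted p under 0.05 the counts were 0 of 3 at 3 months, where 7.11% of all probes passed, and 1 of 3 at 14 months, where 4.6% passed. For diet averaged over both times 0 of 3 were called against 0.00515%, with 0 at the unadjusted threshold against 7.19%. For time on control diet 0 of 3 were called against 0%, with 0 unadjusted against 10.1%. For time on BASE-diet 0 of 3 were called against 0%, with 1 unadjusted against 7.44%. For time averaged over both diets 0 of 3 were called against 0.221%, with 1 unadjusted against 13.6%, and for the interaction 0 of 3 against 0%, with 0 unadjusted against 4.8%. In each case the member past the unadjusted threshold was Cyp1a2. The share over all probes moved with the setting while no member was called. For diet at 3 months it rose from 0% to 1.14% with Cy5 alone and to 0.477% without CD 3 replicate 5, for time on control diet to 1.05% without that array, and for time on BASE-diet to 0.509% with array weights. For time averaged over both diets it ran from 0.108% to 0.549% on leaving out each array in turn, and it fell to 0% with the slide as a block and to 0.0463% with the replicate block. The median difference of the 3 members was 0.19 at 3 months and -0.02 at 14 months, against 0.03 and 0.05 over all probes tested.

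Genes around the receptor were counted from 3 lists of 32 genes in all, of which 30 were tested. None passed the limma threshold for diet. At an unadjusted p under 0.05, 1 was higher and 1 lower in BD 3 than in CD 3, and 1 was higher and 0 lower in BD 14 than in CD 14, where 7.11% and 4.6% of all probes passed, so the counts are near the background. The medians were 0.09 and 0.05, against 0.03 and 0.05 over all probes. None passed for time either, and the lowest adjusted p, for time averaged over both diets, was 0.0689.

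The receptor complex and its partners (12 of 12 tested) had 6 higher and 6 lower with BASE-diet at each time, and 4 higher and 8 lower averaged over both times. At 3 months the highest difference was that of Hif1a, another partner of Arnt, at 0.80 (SE 0.75), and the lowest that of Ep300, an acetyltransferase coactivator, at -0.26 (SE 0.28). At 14 months the highest was Rela, a subunit of NF-kappaB, at 0.58 (SE 0.45), and the lowest Ncoa3, a coactivator, at -0.49 (SE 0.37). Averaged over both times, Hif1a was again the highest at 0.49 (SE 0.51) and Ep300 the lowest at -0.34 (SE 0.19). Each of these differences was within 2 SE.

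Of the phase I and II targets (9 of 9 tested), 6 were higher and 3 lower with BASE-diet at 3 months and again at 14 months, though Aldh3a1 (-0.59 and 0.20) and Xdh, xanthine dehydrogenase (0.03 and -0.05), changed sides. Nqo1, the quinone reductase, had the highest difference at 3 months with 0.66 (SE 0.59), and Aldh3a1, an aldehyde dehydrogenase, the lowest with -0.59 (SE 0.50). At 14 months Por, which passes electrons to cytochrome P450 enzymes such as Cyp1a2, was the highest with 0.87 (SE 0.38, limma unadjusted p = 0.0323, adjusted p = 0.952), where Cyp1a2 was lower. Cyp2s1, another cytochrome P450, was the lowest with -0.35 (SE 0.35). Averaged over both times Por stood at 0.64 (SE 0.28, adjusted p = 0.660) and Cyp2s1 at -0.28 (SE 0.26).

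Of the other genes that respond to ligands in liver (9 of 11 tested), 6 were higher and 3 lower at 3 months and 5 higher and 4 lower at 14 months. Cdkn1b, an inhibitor of cyclin-dependent kinases, had the highest difference at 3 months with 1.18 (SE 0.37, limma unadjusted p = 0.00449, adjusted p = 0.435), and Fgf21, a liver hormone of fasting, the lowest with -0.92 (SE 0.74). At 14 months Igfbp1, a binding protein of insulin-like growth factors, was the highest with 0.90 (SE 0.61), and Cd36, a fatty acid receptor, the lowest with -0.38 (SE 0.62). Averaged over both times Igfbp1 stood at 0.73 (SE 0.45), and Nfe2l2, the antioxidant regulator Nrf2, at -0.31 (SE 0.12, adjusted p = 0.627).

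The genes whose log2 ratios followed each member most closely over the 22 arrays were sought among 16526 others, as a description. The points share slides and the reference RNA. For Cyp1a2 they were Slc1a2 (Pearson's r = 0.80), Cyp2b3, a cytochrome P450 (0.76), and Pgcp, a peptidase (0.75). For Ahr they were a probe without a gene name (0.84), Cyp27a1, a bile acid enzyme (0.79), and Mybbp1a (0.78). For Arnt they were a probe without a gene name (0.77), Zfp787 (0.72) and LOC292449 (0.68). Among the members the correlation was -0.18 between Ahr and Cyp1a2, 0.14 between Arnt and Cyp1a2, and -0.01 between Ahr and Arnt.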

How the data were processed

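Liver RNA of 22 rats was measured on Agilent rat arrays, 1 array a rat. The intensity values of each spot were made by the authors with Agilent Feature Extraction (10.7.3.1 by the methods and the submitters' processing notes, 10.10.1.1 per the file headers), with background subtraction and linear Lowess normalization of the dyes. The log10 values, per the file headers, are ratios of processed Cy5 to processed Cy3, 0 where neither channel is above background, and probes are annotated to rn4. A table of log2 values of entries selected by the authors on these samples was also deposited, used here only as an alternative for Ahrr and Cyp1b1.

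The log10 ratios were turned to log2, spots that were controls or non-uniform were dropped and a probe's remaining spots averaged. The 4 group means were fitted over 19434 probes with limma 3.58.1 in R 4.3.3 (moderated F test and contrasts, eBayes), p adjusted by Benjamini-Hochberg over all of them, tested on simulated data. Main probes of listed genes had the highest mean Cy5 signal, and 18005 probes had a RefSeq symbol. Values of list genes are given for the lowest and the highest in each diet comparison and any past the threshold. Python 3.11.15, numpy 2.4.6, pandas 2.3.3, scipy 1.17.1 and matplotlib 3.10.9 were used. Marker lists were hepatocyte, pericentral, periportal, stellate, endothelial, macrophage, lymphocyte, red cell, bile duct and pancreas. The members and lists were chosen with earlier results of these data known. Of 24 arrays made, 1 of each 3-month group was rejected by the authors and is not analysed here. The number of arrays limits the precision.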

Additional observations from a re-analysis of the deposited data

Results flagged for a closer look

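Of 20 groups of arrays examined over the 5 probes tested, 1 held an array far from the others, where chance alone gives about 1 in 20. The Arnt log2 ratio of BD 14 replicate 1 was -1.84, while the nearest other BD 14 array stood at 0.30 and the highest at 1.38. Of the 6 BD 14 arrays, replicate 1 alone had a reference spot well above background, so the other 5 ratios have an unmeasured reference. The gap took 0.666 of the range of the group. Without this array Arnt differed between BD 14 and CD 14 by 0.42 in place of -0.02, and between BD 14 and BD 3 by 0.07 in place of -0.37, neither past the limma threshold.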

How the results depend on the processing

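No member was called in any of the comparisons under any alternative run, as in the values reported. Without the detection filter 30367 probes entered the fit in place of 19434. The values of single probes that changed sign were all of differences not called. With the slide as a block, these were Ahr by diet at 3 months (-0.36), Ahr by description by diet at 14 months (0.14) and by time on BASE-diet (0.13), Arnt by diet at 14 months (0.38) and by time on BASE-diet (0.25), and Tiparp by description by diet at 14 months (-0.00193), by time on BASE-diet (-0.15) and on control diet (-0.00344). On slide C alone they were, by diet at 14 months, Ahr by description (0.14), Arnt (0.38) and Tiparp by description (-0.00193). These repeat the values with the block, since all BD 14 arrays are on that slide. With normexp and loess they were Ahr (-0.0465) and Cyp1a2 (0.0277) by diet at 3 months, Arnt by time on control diet (0.0179) and Tiparp by description by diet at 14 months (-0.00135). With Cy5 alone they were, by time, Ahr on BASE-diet (-0.41) and on control diet (0.17), Ahr by description on control diet (-0.0527) and Arnt on control diet (0.0865). Tiparp by description turned at 3 and 14 months with array weights (-0.28 and -0.14) and with centred arrays (-0.00678 and -0.0624). For 2 probes too dim to test, the authors' table of selected entries gave differences by diet at 3 and 14 months of 0.28 and -1.19 for Ahrr and of -0.28 and -0.99 for Cyp1b1. These entries were selected on these samples, the values were not tested, and the array files hold no measured level of either gene in most arrays to set beside them. The paper lists CYP1B1 in the melanogenesis pathway among genes regulated after 14 months of BASE-diet. Here its probe did not enter the test.

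Leaving out each array in turn gave ranges that crossed 0 for Ahr by time on control diet (-0.34 to 0.21), Ahr by description by time on control diet (-0.0172 to 0.40), Arnt by diet at 3 months (-0.17 to 0.72) and at 14 months (-0.26 to 0.42) and by time on control diet (-0.51 to 0.37) and on BASE-diet (-0.60 to 0.0739), Cyp1a2 by diet at 3 months (-0.23 to 0.13) and by time on control diet (-0.29 to 0.11), and Tiparp by description by diet at 3 months (-0.20 to 0.30) and at 14 months (-0.15 to 0.12). Other ranges kept their sign but were wide. For Ahr they were 0.00318 to 0.55 by diet at 3 months, 0.41 to 0.80 at 14 months and 0.0611 to 0.46 by time on BASE-diet. For Ahr by description they were 0.23 to 0.62, -0.73 to -0.32 and -0.95 to -0.59. Tiparp by description had 0.12 to 0.53 by time on control diet and 0.0527 to 0.44 on BASE-diet. Cyp1a2 by diet at 14 months stayed between -1.20 and -0.78, and the lowest limma adjusted p of the 5 probes tested for members or by description, in any setting, was 0.103, for Cyp1a2 by time on BASE-diet with array weights.

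The replicate numbers name separate rats. Same-numbered arrays correlated with r from -0.27 to 0.29, and no range for arrays of unlike numbers is given beside it. In each comparison by diet or time, 1 or 2 of 5 or 6 arrays were closest to the array of their own number. With the replicate block 0 members were called and Cyp1a2 by diet at 14 months was -0.996 (limma adjusted p = 0.804). The cause of these changes was not tested.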
